A study of Mus musculus with 26 samples.

Results

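The knockout of a gene needed by mitochondria was followed in the intestinal epithelium at day 3 and day 7, and the measure described here is how far its effect on each transcript changed between these days: knockout minus control at day 7, less the same difference at day 3. All 26 libraries of the series entered the comparison, and it was tested in 19604 of the 55487 genes in the table. The 4 groups were knockout and control mice at day 3, with 7 libraries each, and at day 7, with 6 libraries each, and each library was labelled as a separate sample. Knockout mice were homozygous for the floxed target gene and carried Villin-creERT2, a tamoxifen-dependent Cre recombinase under a promoter active in intestinal epithelial cells (IECs). Controls were littermates with the same floxed alleles and without Cre, and both genotypes received 5 daily injections of tamoxifen and were killed 3 or 7 days after the last one. All mice were adults on the C57BL/6N background and ate normal chow. RNA came from whole tissue of the proximal small intestine (SI) and was sequenced from the 3′ ends of transcripts. Genes of muscle, stroma and immune cells, in which Cre is not active, were therefore measured together with those of the epithelium.

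Cells with failing mitochondria commonly switch on the integrated stress response, in which the transcription factor ATF4 raises genes for amino acid uptake, amino acid synthesis and tRNA charging. The epithelium of the SI renews itself within days from dividing crypt cells, and its enterocytes absorb nutrients and pack dietary fat with apolipoprotein B into chylomicrons (CMs). A comparison of 2 time points asks which of these programmes responded first and which followed.

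The libraries held between 3720168 and 6338016 counts, with a median of 5235752. Pieces of tissue differed in what lay next to the epithelium: stomach transcripts summed to at least 10000 CPM, the count of a gene scaled to a common library total, in 4 libraries, which were knockout replicate 1 and control replicates 5 and 7 of day 3 and control replicate 2 of day 7. Pancreatic acinar transcripts did so in 4 others, which were knockout replicate 2 and control replicates 2 and 3 of day 3 and knockout replicate 4 of day 7. Smooth muscle markers fell between the days in both genotypes, with a median log2 change of -1.14 in knockout and -1.02 in control mice, and none of 14 was called for the interaction.

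The knockout effect changed between the days for 3603 genes at an adjusted p under 0.05. It became more positive for 1693 (8.64% of genes tested) and more negative for 1910 (9.74%). The median size of the called differences was 1.12 on the log2 scale, and 786 of the more positive and 1242 of the more negative ones were at least 2-fold. Effects were few at day 3, where 230 of 20760 genes were higher (1.11%) and 67 lower (0.323%) in the knockout. At day 7, 3984 of 20259 genes were higher (19.7%) and 3806 lower (18.8%). Knockout replicate 1 of day 3 had a large share in the low count of that day, since 779 genes were called at day 3 without it against 297 with it, and 4106 were then called for the interaction.

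Genes were sorted by their calls at day 3, at day 7 and for the interaction, each at an adjusted p under 0.05. A late effect, called at day 7 and for the interaction but not at day 3, was found for 3293 genes (16.8%), of which 1507 were higher and 1786 lower in the knockout. A sustained effect, called in the same direction at both days, was found for 253 genes (1.29%), 207 higher and 46 lower. The sustained effect was called as larger at day 7 for 114 of them (89 higher, 25 lower), as smaller for none, and did not differ at this threshold for 139 (118 higher, 21 lower). An effect at day 3 alone was found for 15 genes, and a called effect of opposite direction at each day for 5. A further 4172 genes were called at day 7 but neither at day 3 nor for the interaction, so a timing cannot be given for them. Without knockout replicate 1 of day 3, sustained genes numbered 591, which included all 253, genes called at day 3 alone numbered 63 and reversed genes 21. Without all 8 libraries with stomach or acinar transcripts they numbered 185, 3 and 2, and 2651 genes were late.

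**Figure D1:**
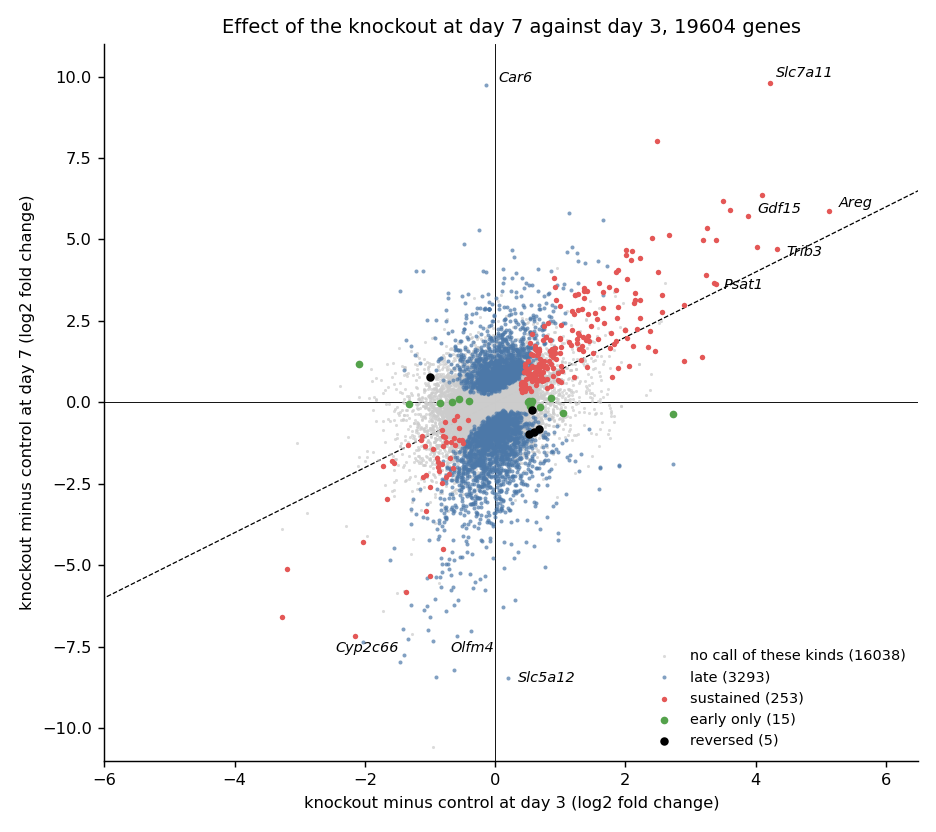
Effect of the knockout at day 3 (horizontal axis) and day 7 (vertical axis) as log2 fold change, 1 point per gene for 19604 genes, with equal effects on the dashed line. Most coloured points are late genes, which lie along the vertical axis, while Slc7a11, Areg, Gdf15, Trib3 and Psat1 were already displaced at day 3.

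Genes of the ATF4 response were raised at day 3 already. Of 21 stress regulators and secreted stress factors tested, 11 were higher in the knockout at day 3 and 16 at day 7, and the interaction was called as more positive for 9 and more negative for 1. Their median log2 effect was 0.70 at day 3 and 2.06 at day 7, against -0.03 and -0.02 over all genes. Without the 8 libraries, the interaction was called as more positive for 7 and more negative for none.

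Atf4, the central transcription factor of the response, ranged from 230 to 297 CPM (median 282) in control and from 447 to 937 CPM (median 694) in knockout mice at day 3. The day 7 range was 223 to 300 CPM (median 240) in control and 780 to 1040 CPM (median 884) in knockout mice. The genotypes were apart at both days. The log2 effect was 1.44 ± 0.15 (SE) at day 3 and 1.87 ± 0.11 at day 7, and its growth was not called (0.45 ± 0.19, adjusted p = 0.0936, edgeR quasi-likelihood test). It was called with limma voom (adjusted p = 0.0366), with acinar and stomach scores as covariates (0.0404) and without knockout replicate 5 of day 3 (0.029).

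Atf5 and Trib3 were raised at both days. Atf5, a related factor linked to the mitochondrial unfolded protein response, ranged from 149 to 486 CPM (median 403) in knockout mice at day 3 and from 380 to 453 CPM (median 393) at day 7. Controls held at most 51.1 CPM at either day. Its log2 effect was 3.24 ± 0.23 and then 3.92 ± 0.12, with an interaction that was not called (0.69 ± 0.26, adjusted p = 0.0659). It was called without knockout replicate 1 (0.0357), 3 (0.0409) or 4 (0.047) of day 3, and also with the replicate block (0.0447), limma voom (0.0381), acinar and stomach scores (0.0359) or the smooth muscle score (0.0402) in the fit. Its exons overlap those of Nup62 and Il4i1 on the other strand, and no strand option is stated for the counting, so their reads may be mixed. The same holds for other genes named here that overlap another on the other strand. Among them are Ddit3 (Mars), Psph (Cct6a), Shmt1 (Smcr8), Shmt2 (Ndufa4l2), Slc6a9 (B4galt2), Hspd1 (Hspe1), Ndufs3 (Kbtbd4), Ctsb (Fdft1), Sqstm1 (Mrnip), Ube2c (Tnnc2), Dbp (Sphk2) and Nr1d1 (Thra). Ereg (Gm19610), Aldh1l2 (D10Wsu102e), Hk1 (Hk1os), Hopx (Hopxos), Irf1 (Gm17334) and Cd3e (Gm48719) belong here too, and the list is not complete. Trib3, a pseudokinase that restrains ATF4, had a log2 effect of 4.32 ± 0.45 at day 3 and 4.70 ± 0.20 at day 7.

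Ddit3, Gdf15, Atf3 and Vldlr kept growing. Ddit3 encodes CHOP, a factor of prolonged stress, and ranged from 12.5 to 23.3 CPM (median 16.2) in control and 22.9 to 106 CPM (median 56.1) in knockout mice at day 3. At day 7 it ranged from 15.1 to 21.3 CPM (median 16.9) in control and 199 to 333 CPM (median 296) in knockout mice. The lowest knockout library overlapped the controls at day 3, and none did at day 7. Its log2 effect rose from 1.88 ± 0.26 to 4.06 ± 0.15, an interaction of 2.21 ± 0.32 (adjusted p = 1.07e-05, edgeR). Gdf15, a circulating hormone of mitochondrial disease, went from a median of 42.3 CPM in knockout mice at day 3 to 108 CPM at day 7, with control medians of 3.29 and 2.16 CPM. The interaction was 1.85 ± 0.47 (adjusted p = 0.00578) for Gdf15, 1.85 ± 0.54 for Atf3, an early stress factor, and 2.24 ± 0.40 for Vldlr, a lipoprotein receptor. The call for Atf3 was lost without the 4 libraries with stomach transcripts and without all 8.

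Amino acid transporters listed as induced by ATF4 grew as well. Slc7a11, the cystine importer that feeds glutathione synthesis, ranged from 0.265 to 3.73 CPM (median 1.12) in control and from 7.36 to 51.7 CPM (median 28.5) in knockout mice at day 3. By day 7 it ranged from 0 to 1.71 CPM (median 0.612) in control and from 526 to 770 CPM (median 619) in knockout mice. Each knockout library of day 7 was above each of day 3, and both were above all controls. The log2 effect went from 4.22 ± 0.47 to 9.79 ± 0.34, and the interaction was 5.60 ± 0.69 (adjusted p = 9.93e-07, edgeR). The control libraries held at most 21 counts of this gene, so the size of its ratio depends on few reads. The list held 11 tested transporters chosen as targets of ATF4, so it does not stand for amino acid transporters in general. Of these 11, 5 were called at day 3 and 9 at day 7, all higher. A more positive effect was called for 6, with Slc7a3 at 2.73 ± 0.68, Slc1a4 at 2.09 ± 0.33 and Slc6a9 at 2.30 on the log2 scale.

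Genes for serine and one-carbon synthesis were raised at both days. Of 17 genes for serine, one-carbon, asparagine and proline synthesis, 9 were higher at day 3, each of them at day 7 too, and 14 at day 7, while the interaction was called as more positive for 4 and more negative for 2. Psat1, which makes phosphoserine, ranged from 7.17 to 10.3 CPM (median 8.17) in control and 35.5 to 103 CPM (median 86.6) in knockout mice at day 3. The range at day 7 was from 3.85 to 7.01 CPM (median 5.48) in control and 59.9 to 77.2 CPM (median 72.3) in knockout mice. The knockout ranges of both days overlapped, and neither overlapped a control. The log2 effects were 3.36 ± 0.21 and 3.67 ± 0.13, with an interaction of 0.33 ± 0.26 (adjusted p = 0.418). Phgdh, Psph and Shmt2, which act before and after Psat1, had log2 effects of 2.22, 1.99 and 1.51 at day 3 and of 2.60, 2.22 and 1.51 at day 7, and none was called for the interaction. Asns, which makes asparagine, grew from 2.23 ± 0.20 to 3.16 ± 0.12 (interaction 0.95 ± 0.24, adjusted p = 0.0051), and Aldh1l2, a mitochondrial folate enzyme, grew by 2.47. Shmt1, the cytosolic counterpart of Shmt2, went the other way, with -0.04 at day 3, -1.13 at day 7 and an interaction of -1.07.

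Most cytosolic aminoacyl-tRNA synthetases were raised at day 3. Of 20 tested, 13 were higher at day 3 and 18 at day 7, none was lower, and the interaction was called as more positive for 9. Gars, the glycine enzyme, ranged from 39.4 to 55.4 CPM (median 44.6) in control and 74.4 to 157 CPM (median 124) in knockout mice at day 3. Day 7 levels ranged from 33.7 to 42.8 CPM (median 37.6) in control and 215 to 278 CPM (median 258) in knockout mice. The genotypes were apart at both days, and the interaction was 1.25 ± 0.20 (adjusted p = 3.43e-05). Nars, the asparagine enzyme, had 1.78 at day 3 and 2.13 at day 7 and was not called for a change. Wars, the tryptophan enzyme, had 0.46 at day 3, which was not called, and 2.25 at day 7, and it counted as sustained without knockout replicate 1 of day 3. Of 16 synthetases of mitochondria none was called at day 3, and 6 were higher and 2 lower at day 7. Over all genes 1.11% were higher and 0.323% lower at day 3, and 19.7% and 18.8% at day 7. The median log2 effect was 0.13 at day 3 and 0.005 at day 7 for the mitochondrial list, against 0.72 and 1.27 for the cytosolic list. Wars2 alone of the 16 was called for the interaction, though not without the 8 libraries.

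ATF4 and its partners bind a composite element with the letters TGATGNAA. In the RefSeq promoters of GRCm38.p6, windows of 250 bases before to 50 after the start, these letters were found on either strand in 24 of 174 promoters (13.8%) of sustained higher genes. The share was 2.39% of 16099 promoters of all tested genes with an entry, 2.8% for late higher genes and 2.52% for late lower genes, and 0 of 48 promoters of sustained lower genes held them. The following stretches, each 30 bases long and read along the strand of its gene, show the element upstream of named genes that were higher at both days, with the match in capitals.
Asns, chr6:7693214-7693243, minus strand: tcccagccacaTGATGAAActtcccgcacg
Gars, chr6:55037960-55037989, plus strand: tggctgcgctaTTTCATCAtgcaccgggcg
Atf3, chr1:191183425-191183454, minus strand: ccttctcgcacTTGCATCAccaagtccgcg
Vldlr, chr19:27216809-27216838, plus strand: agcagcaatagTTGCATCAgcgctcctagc
Slc7a11, chr3:50443661-50443690, minus strand: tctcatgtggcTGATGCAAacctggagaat
Slc7a11, chr3:50443642-50443671, minus strand: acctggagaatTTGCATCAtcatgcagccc
The promoter of Slc7a11, the gene with the largest growth among sustained higher genes named here, held 2 matches, on opposite strands. A match is a description of the letters in these windows, and binding was not measured.

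Mitochondrial genes were split by kind. Of 16 mitochondrial chaperones and proteases, 2 were higher at day 3 and 11 at day 7, and 4 were called for a more positive effect. Hspa9, the main chaperone of the matrix, had a log2 effect of 1.17 ± 0.22 at day 3 and 2.21 ± 0.11 at day 7 (interaction 1.06 ± 0.26, adjusted p = 0.00403). Lonp1, a matrix protease, went from 1.34 to 2.85, whereas Hspd1, the chaperonin of the matrix, had 0.37 and 0.32 with no call for the interaction. Of 40 respiratory chain subunits encoded in the nucleus none was called at day 3, and 1 was called for the interaction, Ndufs3 at 1.17. Of the subunits encoded by mitochondrial DNA (mtDNA), 2 of 8 were higher at day 3 and 4 of 8 at day 7, and 1 of 7 was called for the interaction, which was mt-Co1. It ranged from 1580 to 2180 CPM (median 1980) in control and from 2270 to 4570 CPM (median 3850) in knockout mice at day 3. Its day 7 levels ranged from 1860 to 2390 CPM (median 2100) in control and from 7190 to 9800 CPM (median 7810) in knockout mice. The genotypes were apart at both days and the gap widened (interaction 0.96 ± 0.21, adjusted p = 0.00151).

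Of 16 EGF family ligands and receptors, 4 were higher at day 3, 9 were higher and 4 lower at day 7, and the interaction was called as more positive for 4 and more negative for 1. Areg, an EGF receptor ligand released by stressed epithelium, ranged from 2.6 to 9.41 CPM (median 4.98) in control and 14.5 to 318 CPM (median 146) in knockout mice at day 3. At day 7 it ranged from 12.7 to 21.4 CPM (median 16.1) in control and 810 to 1260 CPM (median 958) in knockout mice. Every knockout library was above every control library of its day. Since Areg rose between the days in control mice as well (2.105 on the log2 scale, adjusted p = 0.00025) and by 2.89 in knockout mice, the knockout effect was 5.13 ± 0.53 and then 5.88 ± 0.17, with no call for the interaction (0.78 ± 0.55, adjusted p = 0.373). Ereg and Btc, 2 more ligands, grew by 2.53 ± 0.39 and 1.79 ± 0.31, and Nrg1 was late, with 0.49 at day 3 and 2.29 at day 7. Cdkn1a, which halts the cell cycle, had the same form, with an effect of 1.82 ± 0.36 and then 1.79 ± 0.18, on top of a rise of about the same size between the days in both genotypes (1.76 and 1.77). Its interaction was -0.01 ± 0.43.

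Further sustained genes with a large growth were Gsta2, a glutathione transferase (2.68 ± 0.62), and Kif3a, a subunit of the kinesin that serves cilia (2.66 ± 0.22). Kif3a ranged from 11.9 to 22 CPM (median 14.7) in control and 17.4 to 34.6 CPM (median 29.3) in knockout mice at day 3. By day 7 it ranged from 7.62 to 10.4 CPM (median 9.53) in control and 83.3 to 132 CPM (median 108) in knockout mice. The genotypes overlapped at day 3 only.

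**Figure D2:**
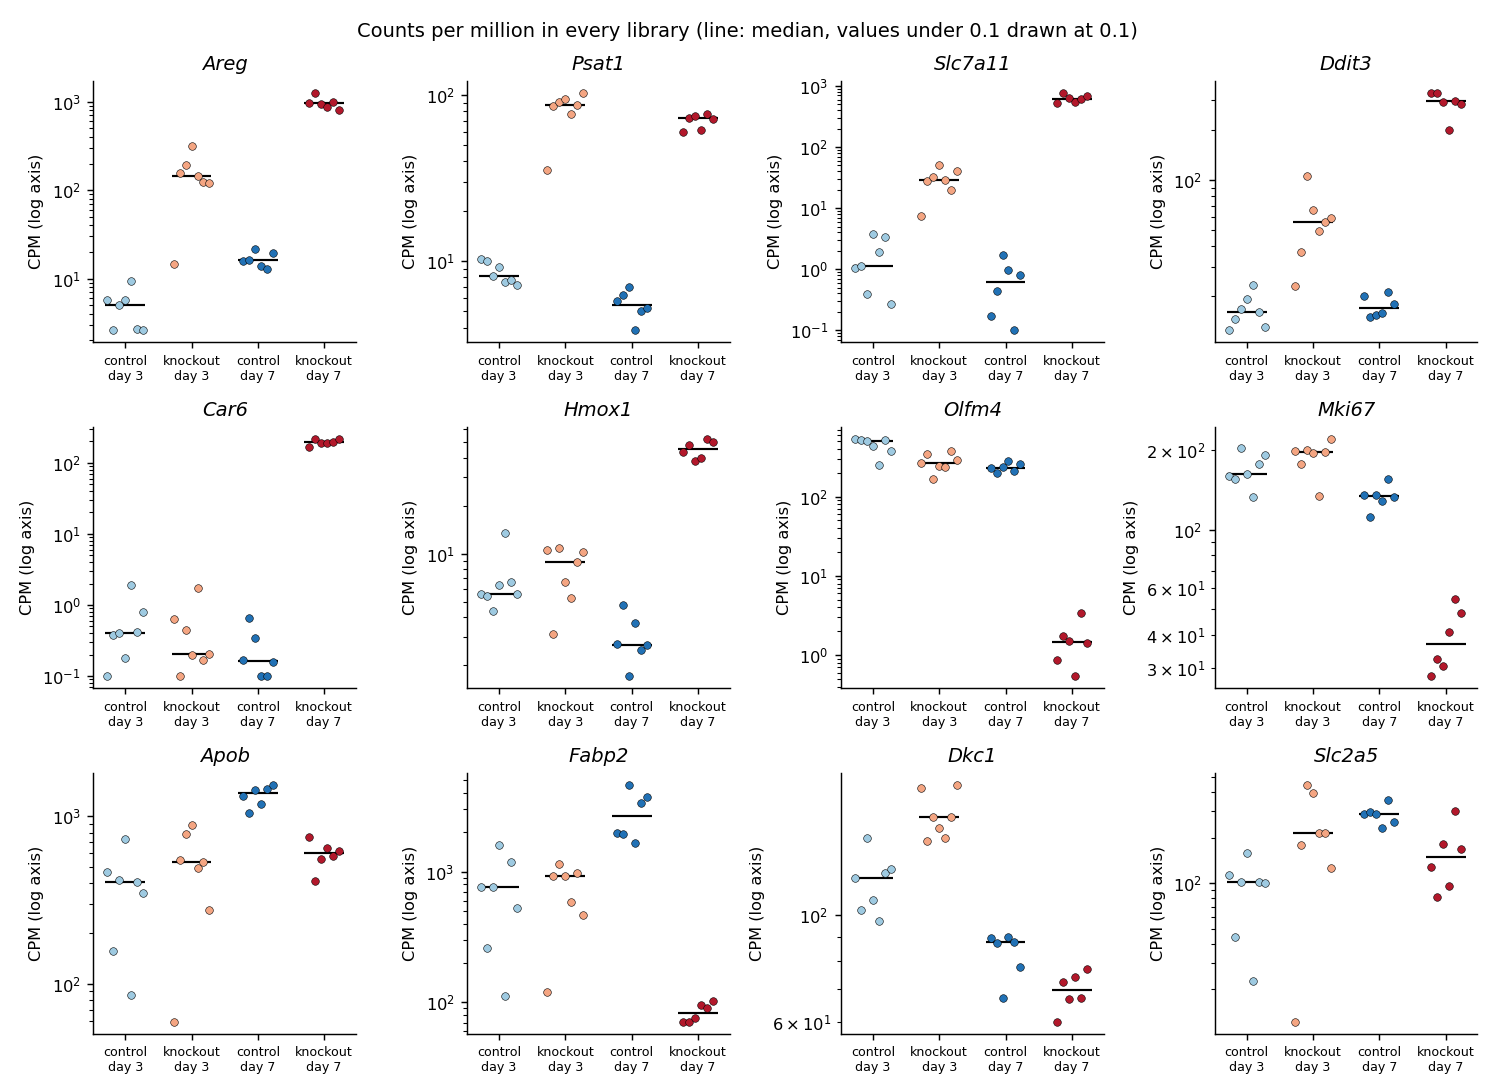
CPM on a log axis for 12 genes in every library, 1 point per mouse, with a line at the median of each group and values under 0.1 drawn at 0.1. Areg and Psat1 were raised at both days, Slc7a11 and Ddit3 grew, Car6 and Hmox1 were raised at day 7, Olfm4 and Mki67 fell in knockout mice, and Apob and Fabp2 were higher in day 7 controls than in day 3 controls.

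Few genes were lower at both days. Cyp2c66, an epoxygenase of enterocytes, ranged from 6.72 to 109 CPM (median 70.7) in control and 2.52 to 25.9 CPM (median 11.1) in knockout mice at day 3. The range at day 7 was from 60.4 to 169 CPM (median 140) in control and 0.19 to 1.81 CPM (median 0.781) in knockout mice. The genotypes overlapped at day 3 and were far apart at day 7, where no knockout library had more than 11 counts. The log2 effect went from -2.16 ± 0.48 to -7.16 ± 0.31 (interaction -4.98 ± 0.72, adjusted p = 1.04e-05). Oat, which links ornithine and proline metabolism, went from -0.997 ± 0.22 to -2.58 ± 0.17. Sema5a, a guidance cue, went from -0.75 ± 0.12 to -2.30 ± 0.14, and Pdcd4, an inhibitor of translation, from -1.10 ± 0.26 to -2.28 ± 0.15. All 3 were called for the interaction, and the genotypes of Sema5a and Pdcd4 did not overlap at either day. Elf3, an epithelial transcription factor, had -0.63 and -1.09 and was not called for a change.

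Other genes were called as raised at day 7 and not at day 3. The gene with the largest interaction among them was Car6, a secreted carbonic anhydrase. It held at most 7 counts in any library of the other groups and ranged from 169 to 218 CPM (median 193) in knockout mice at day 7. At this depth no effect could be seen at day 3 (log2 -0.15 ± 0.77), and the interaction of 9.88 ± 0.97 rests on a near-empty background (adjusted p = 2.6e-08, edgeR). Il1rn, the antagonist of the interleukin-1 receptor, went from 0.26 ± 0.28 to 4.69 ± 0.29, and Rbm24, an RNA-binding protein, from 0.12 ± 0.24 to 4.09 ± 0.22. Rbm24 also fell in control mice between the days by 1.44 on the log2 scale. Anxa3, an annexin, went from 0.66 ± 0.26 to 4.08 ± 0.29. Its day 3 median was 29.9 CPM in knockout and 16.7 CPM in control mice, with overlapping ranges. Of 23 genes of the fetal-like regenerative epithelium, which include Il1rn and Anxa3, 9 were called as more positive and 1 as more negative (12 and 3 without the 4 libraries, 12 and 1 without the 8), and 2 were higher at day 3.

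Of 22 genes for glutathione and antioxidant defence, 1 was called as higher at day 3, which was Slc7a11. At day 7, 15 of 23 were higher and 2 lower. The median log2 effect of the list was already 0.50 at day 3 and was 0.75 at day 7, against -0.03 and -0.02 over all genes. The interaction was called as more positive for 8 of 22 and more negative for 1, and 8 were late. Hmox1, which breaks down haem, ranged from 4.38 to 13.4 CPM (median 5.57) in control and 3.14 to 10.9 CPM (median 8.9) in knockout mice at day 3. Day 7 levels ranged from 1.71 to 4.78 CPM (median 2.7) in control and 38.1 to 52.5 CPM (median 45.5) in knockout mice. The genotypes overlapped fully at day 3 and not at all at day 7 (interaction 3.64 ± 0.35, adjusted p = 1.58e-08). Gclc, the limiting enzyme of glutathione synthesis, Nqo1, a quinone reductase, and Gstm1, a glutathione transferase, had interactions of 1.44, 1.27 and 2.21. Gstm1 and Gsta3 counted as sustained without knockout replicate 1 of day 3.

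Ppp1r15a, which ends the stress block on translation, was late among the stress regulators. It ranged from 8.96 to 20.6 CPM (median 16.7) in control and 11.6 to 33.2 CPM (median 15.3) in knockout mice at day 3. Its day 7 levels ranged from 3.27 to 9.47 CPM (median 8.14) in control and 76.6 to 143 CPM (median 101) in knockout mice. The genotypes overlapped at day 3 only. The effect was not called at day 3 (0.26 ± 0.22) and was 3.82 ± 0.19 at day 7, an interaction of 3.58 ± 0.31 (adjusted p = 3.37e-09). Its exons overlap those of Tulp2. Nupr1, a stress-induced chromatin factor, was late as well, with -0.18 at day 3 and 2.27 at day 7.

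Most listed genes of cytosolic ribosomes were called as higher at day 7, and those of lysosomes went both ways. Of 30 cytosolic ribosomal proteins none was called at day 3 and 20 were higher at day 7, and 12 were called for a more positive effect, with medians of 0.19 and 0.73 on the log2 scale. Of 22 autophagy and lysosome genes none was called at day 3, and 9 were higher and 5 lower at day 7. Over all genes 1.11% were higher and 0.323% lower at day 3, and 19.7% and 18.8% at day 7. The median log2 effect of this list was -0.01 at day 3 and 0.22 at day 7. For 6 of the 22 the interaction was called as more positive, among them Sqstm1, an autophagy receptor, at 2.04 ± 0.16, and the cathepsins Ctsd and Ctsb at 1.13 and 1.05. Hk1, the first enzyme of glycolysis, had an interaction of 2.93 ± 0.38, and Slc2a1, a glucose transporter, went from 0.75 to 2.35. Plin2, which coats lipid droplets, went from 0.40 at day 3 to 1.45 at day 7 (interaction 1.07), and it counted as sustained without knockout replicate 1 of day 3.

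The interaction is also the change of the knockout between the days less that of the control, and both changes were taken from the same fit. In knockout mice 3944 genes were higher (20.1%) and 3953 lower (20.2%) at day 7 than at day 3. In control mice 3730 were higher (19%) and 3793 lower (19.3%), so tissue without Cre differed between the days as well. For the 1693 genes with a more positive effect, the knockout was called as rising for 1219 (72%) and the control as falling for 624 (36.9%). For the 1910 genes with a more negative effect, the knockout was called as falling for 1160 (60.7%) and the control as rising for 1079 (56.5%). Of these 1910, only the knockout change was called for 682 (35.7%), only the control change for 688 (36%), and both, in opposite directions, for 372 (19.5%).

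The smooth muscle score, the mean log2 CPM of its list, was lower at day 7. In control mice it ranged from 7.05 to 7.82 at day 3 and from 5.98 to 6.68 at day 7, without overlap. As a covariate it therefore nearly stands in for day in these mice, and a loss of control calls with it cannot be credited to muscle. With the smooth muscle score as a covariate, an alternative chosen after seeing the data, the interaction was called for 4215 genes, which included 3601 of the 3603. The count of falling knockout genes among the more negative ones was then 1222, but that of rising control genes was 189 in place of 1079, and that of falling control genes among the more positive ones was 45 in place of 624. The day of the sample and the make-up of the piece cannot be told apart in the control changes. Muscle markers fell in knockout mice as well, with a median of -1.14. Whether a change in make-up adds to the interaction of genes also active outside the epithelium was not tested. In whole tissue, fewer cells of a type and less RNA per cell cannot be told apart either.

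**Figure D3:**
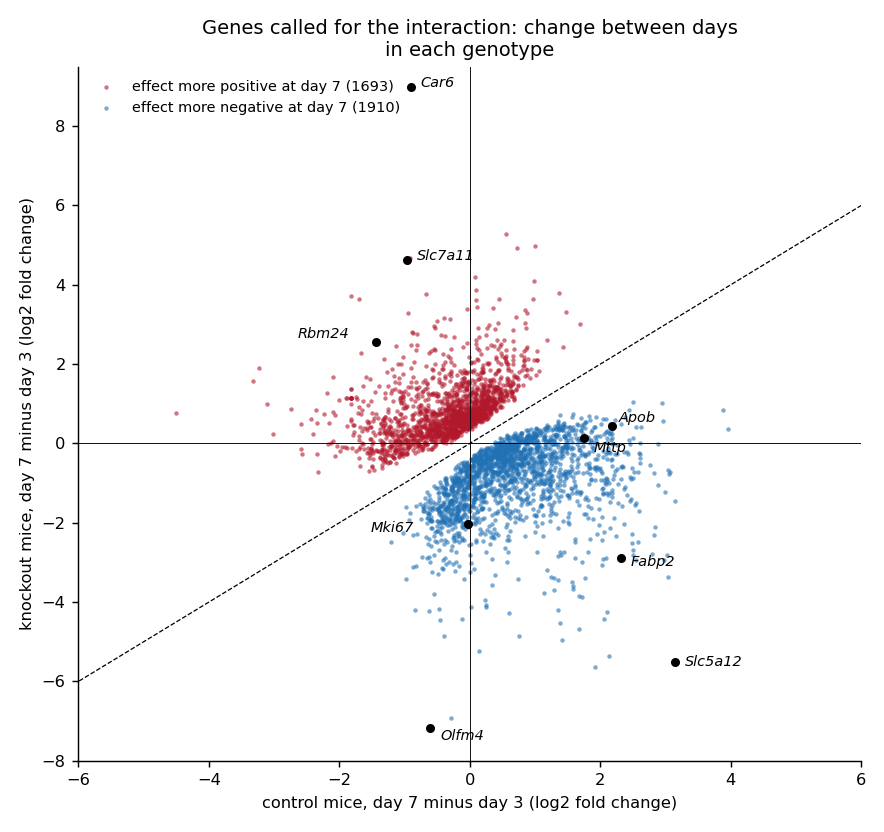
Change between day 3 and day 7 in control mice (horizontal axis) and knockout mice (vertical axis) as log2 fold change, for the 3603 genes called for the interaction, with equal changes on the dashed line. Genes such as Olfm4 and Mki67 lie low on the vertical axis with little change in controls, whereas Apob and Mttp lie to the right with little change in knockout mice.

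Genes of dividing cells fell in knockout mice. Of 34 genes for cell cycle and DNA replication none was called at day 3, 31 were lower at day 7, and 29 were called for a more negative effect, also without the 8 libraries. Over all genes tested, 1.11% were higher and 0.323% lower at day 3, so a list without day 3 calls, here or elsewhere, lies near that share. At day 7, 18.8% of all genes were lower, and 9.74% were called for a more negative effect. The median log2 effect of the list was 0.08 at day 3 and -1.41 at day 7. In knockout mice 32 of the 34 fell between the days, with a median of -1.65, against 8 of 34 and a median of -0.15 in control mice. Summed over the list, levels ranged from 1910 to 2790 CPM in knockout and 1440 to 2560 CPM in control mice at day 3, and from 486 to 668 CPM in knockout and 1340 to 1530 CPM in control mice at day 7. The genotypes thus overlapped at day 3 and lay apart at day 7.

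Mki67, a marker of cycling cells, ranged from 133 to 203 CPM (median 163) in control and 134 to 221 CPM (median 197) in knockout mice at day 3. At day 7 it ranged from 112 to 155 CPM (median 134) in control and 27.9 to 54.6 CPM (median 36.8) in knockout mice. The interaction was -1.998 ± 0.19 (adjusted p = 1.99e-08, edgeR). Top2a, which untangles DNA in mitosis, had 0.18 ± 0.13 at day 3 and -1.71 ± 0.12 at day 7. Pcna, the sliding clamp of replication, moved less, with an interaction of -0.79, while Ccnb1, Birc5 and Ube2c, which act in mitosis, had -1.80, -1.94 and -2.09.

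Crypt genes that fell far were Olfm4 and Clca3b. Olfm4, a marker of stem cells and their daughters, ranged from 251 to 539 CPM (median 503) in control and 167 to 382 CPM (median 266) in knockout mice at day 3. By day 7 it ranged from 199 to 284 CPM (median 231) in control and 0.543 to 3.37 CPM (median 1.48) in knockout mice. The genotypes overlapped at day 3 and differed by a ratio of medians of 156 at day 7. The log2 effect was -0.58 ± 0.19 at day 3, which was not called (adjusted p = 0.168), and -7.17 ± 0.24 at day 7, and the interaction was -6.58 ± 0.34 (adjusted p = 2.73e-13). Clca3b, a calcium-activated chloride channel regulator, held at most 7 counts in a knockout library of day 7 and had an interaction of -6.63 ± 0.42. Lgr5, the classic stem cell marker, moved less, from -0.22 ± 0.22 to -1.94 ± 0.26 (interaction -1.70 ± 0.36). Of 21 stem cell genes 7 were called as more negative and 3 as more positive, among the latter Hopx at 1.78. Between the days 13 of the 21 fell in knockout mice (median -0.74) and 9 in control mice (median -0.49).

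Fads2 and Fads1, the desaturases for polyunsaturated fatty acids, fell by 3.13 and 2.31 on the log2 scale between the days in knockout mice, and their interactions were -2.71 ± 0.20 and -1.44. Fads2 ranged from 90 to 130 CPM in control and 43.5 to 87.3 CPM in knockout mice at day 3, a gap that was not called (adjusted p = 0.0669). Of 23 sterol synthesis genes 6 were called as more negative, among them Dhcr7 at -1.62, and 1 as more positive.

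Genes for fat absorption had another course. Of 26 genes for CM assembly and lipid absorption none was called at day 3, 20 were lower at day 7, and 17 were called for a more negative effect and none for a more positive one (16 and none without the 8 libraries). Between the days, 25 of the 26 rose in control mice with a median of 1.91, while in knockout mice 5 rose and 4 fell with a median of 0.36. The median level of the list, summed, was 5190 CPM in control mice at day 3 (988 to 11300) and 18900 CPM at day 7 (14400 to 28400). In knockout mice it was 8450 CPM at day 3 (895 to 14700) and 5640 CPM at day 7 (4720 to 6520). At day 7 the control libraries lay above all controls of day 3, while the knockout libraries lay within the knockout range of day 3. The lowest libraries of day 3 were knockout replicate 1 and control replicate 5, both among those with stomach transcripts.

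Apob, the backbone of the CM, ranged from 85.2 to 728 CPM (median 407) in control and 59.1 to 887 CPM (median 531) in knockout mice at day 3. The range at day 7 was from 1050 to 1550 CPM (median 1380) in control and 410 to 755 CPM (median 600) in knockout mice. Only the control moved past its day 3 range. The change was 2.18 in control (adjusted p = 0.00018) and 0.44 in knockout mice (adjusted p = 0.4), and the interaction was -1.74 ± 0.57 (adjusted p = 0.0313). Mttp, which loads lipid onto Apob, was alike, with 1.75 in control and 0.15 in knockout mice and an interaction of -1.60 ± 0.46 (adjusted p = 0.0139). Its exons overlap those of Trmt10a. Over all alternatives the adjusted p ranged from 0.00174 to 0.0725 for Apob and from 0.000108 to 0.0514 for Mttp. The call for Apob was lost without knockout replicate 3 or 4 of day 3 (0.0539 and 0.0619), knockout replicate 2 of day 7 (0.0593) or control replicate 5 of day 7 (0.0502).

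Other genes of the list rose in controls and fell in the knockout. Fabp2, a fatty acid carrier of enterocytes, ranged from 112 to 1600 CPM (median 757) in control and 120 to 1140 CPM (median 917) in knockout mice at day 3. Day 7 levels ranged from 1640 to 4630 CPM (median 2650) in control and 70.8 to 102 CPM (median 82.8) in knockout mice. The control change was 2.32 and the knockout change -2.89, and the interaction was -5.21 ± 0.65 (adjusted p = 1.23e-06, edgeR). Apoc3, an inhibitor of lipid clearance, had 3.02 in control and -2.80 in knockout mice, and Apoa1, the main protein of HDL, an interaction of -5.05. Of 29 genes for transport from the ER to the Golgi, 7 were called as more negative, among them Sar1b at -0.996 and Sec24d at -1.06, which form the coat of vesicles that leave the ER, and none as more positive. Between the days, 20 of the 29 rose in control and 10 in knockout mice.

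Brush border hydrolases rose in control mice too, but none was called as rising in knockout mice (1 of 17 without the 8 libraries). Of 17 tested, 16 were lower at day 7, none was called at day 3, and 14 were called as more negative (15 without the 8 libraries). All 17 rose in control mice between the days with a median of 2.17, and 9 fell in knockout mice with a median of -1.11. Lct, the lactase, ranged from 4.57 to 736 CPM (median 161) in control and 5.47 to 294 CPM (median 212) in knockout mice at day 3. Its day 7 levels ranged from 741 to 1580 CPM (median 1040) in control and 10.1 to 54.1 CPM (median 16.3) in knockout mice. The interaction was -5.19 ± 0.98 (adjusted p = 0.000284). Sis, the sucrase, had 1.56 in control and -0.38 in knockout mice, and an interaction of -1.94 ± 0.57 (adjusted p = 0.0171, from 4.13e-05 to 0.0616 over all alternatives). Alpi, the intestinal alkaline phosphatase, had -0.95 at day 7 and was not called for the interaction.

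Of 22 transporters for sugars, peptides and minerals 14 were called as more negative and none as more positive. Slc5a1, the glucose cotransporter, had 2.001 in control and -0.61 in knockout mice and an interaction of -2.62 ± 0.63 (adjusted p = 0.00336). S100g, the calcium carrier of enterocytes, had low levels in knockout mice at day 7, at 0.317 to 9.05 CPM against 32.7 to 4020 CPM in control mice, and an interaction of -7.55 ± 1.44. Pigr, the receptor that carries IgA through the epithelium, had -0.53 ± 0.23 at day 3 and -5.23 ± 0.31 at day 7 (interaction -4.67 ± 0.40).

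Transcription factors of enterocytes did not all follow. Hnf4a ranged from 118 to 240 CPM (median 210) in control and 91.7 to 236 CPM (median 201) in knockout mice at day 3. At day 7 it ranged from 230 to 281 CPM (median 270) in control and 190 to 258 CPM (median 215) in knockout mice. The genotypes overlapped at both days, and neither effect nor the interaction was called (-0.20 ± 0.27, adjusted p = 0.679). Its paralogue Hnf4g had 0.21 ± 0.23 at day 3 and -1.61 ± 0.16 at day 7, and an interaction of -1.80 ± 0.31 (adjusted p = 8.66e-05). Cdx2, Vdr and Isx had interactions of -0.97, -2.27 and -1.93. Of the 20 factors tested 7 were called as more negative and 1 as more positive.

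**Figure D4:**
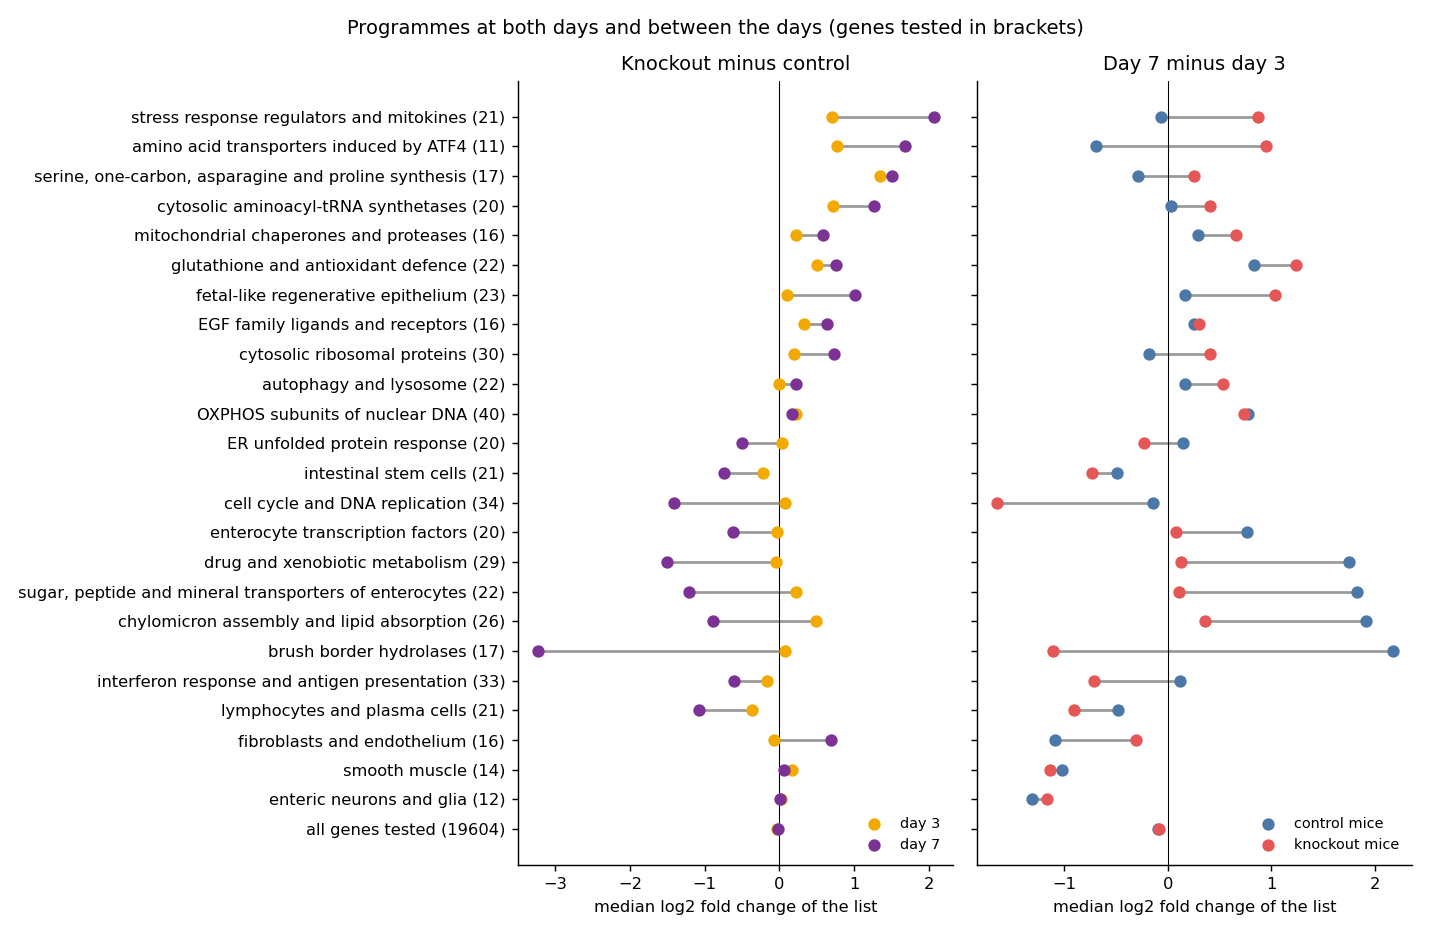
Median log2 fold change of gene lists, with the number of genes tested in brackets: knockout minus control at day 3 and day 7 (left), and day 7 minus day 3 in control and knockout mice (right). The stress and amino acid lists lie right of 0 at both days on the left, and the brush border and CM lists lie furthest right for control mice on the right.

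Promoter letters were also counted in these late groups. The pair TTTGAA and CCAAT, known from genes of the late cell cycle, occurred in 12.8% of 554 promoters of late lower genes for which only the knockout change was called, in 6.08% of 592 promoters of those for which only the control change was called, and in 4.98% of all. The letters CAAAGTCCA, a core site of HNF4 factors, occurred in 0 of 554 and in 10 of 592 (1.69%), against 0.516% of all. These 10 promoters belonged to 8 genes. GATAA, the site of GATA factors, occurred in 16.2% and 21.3%, against 17.8% of all. All were searched on both strands in the same windows, none of these motifs lies within another, and no test was made of the shares.

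**Figure D5:**
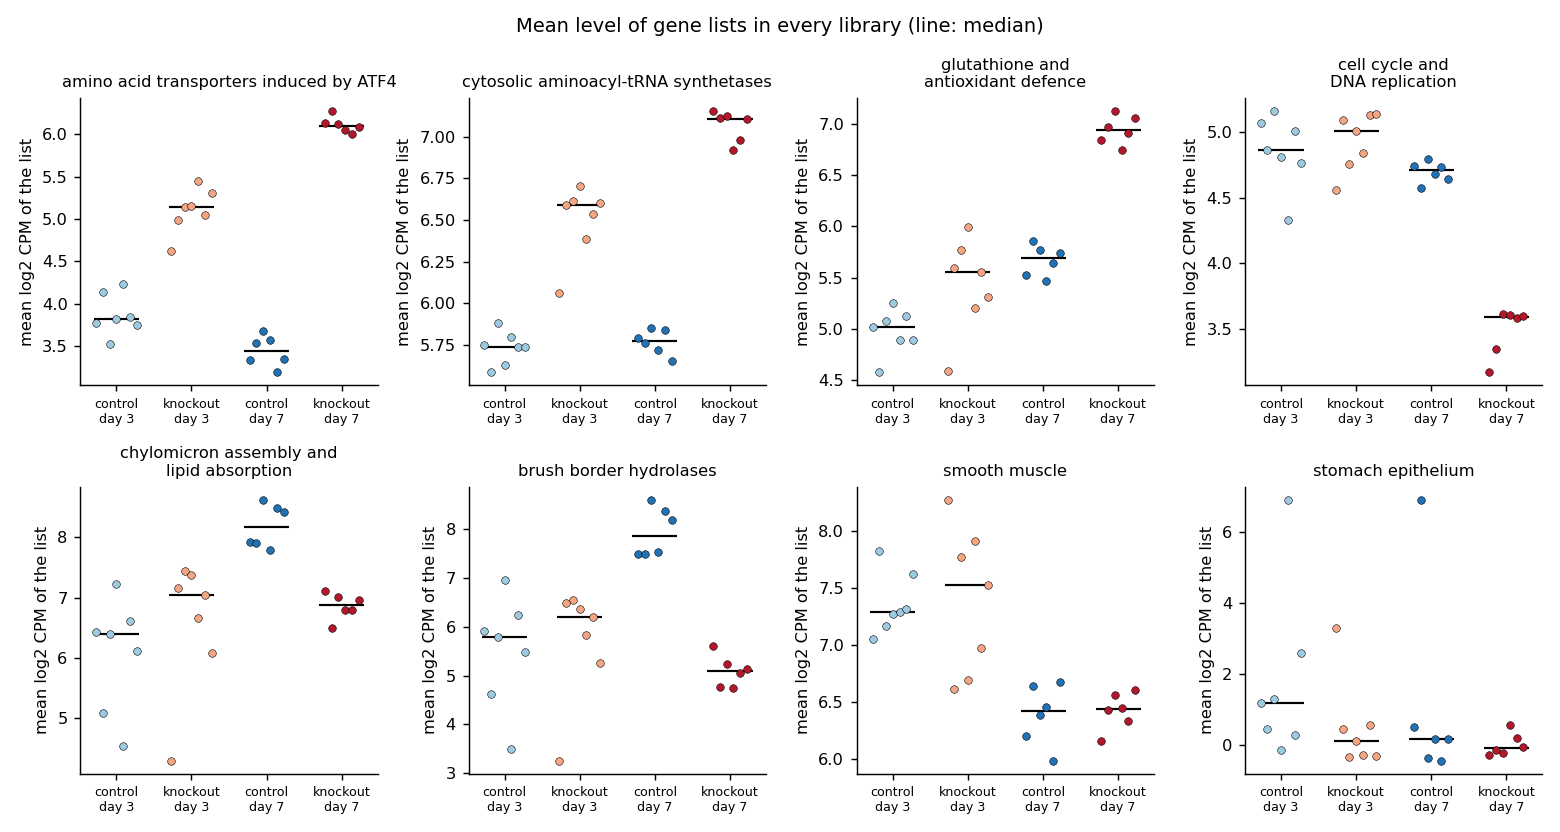
Mean log2 CPM of 8 gene lists in every library, 1 point per mouse, with a line at the median of each group. The CM and brush border lists spread widely among day 3 libraries of both genotypes and were apart between genotypes at day 7, and the smooth muscle list was lower at day 7 in both genotypes.

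Effects at day 3 alone were rare and small. Among the 9 genes higher at day 3 only, Lyar, a nucleolar protein, ranged from 45.7 to 83.3 CPM (median 65.9) in control and 101 to 134 CPM (median 113) in knockout mice. By day 7 it ranged from 42.3 to 49.3 CPM (median 44.5) in control and 43.3 to 54.4 CPM (median 50.1) in knockout mice. The genotypes were apart at day 3 and overlapped at day 7 (0.86 ± 0.12, then 0.14 ± 0.09, interaction -0.70 ± 0.14, adjusted p = 0.00057), and this pattern was kept without the 8 libraries. Tcof1, which serves the making of ribosomal RNA, and Dbf4, which starts DNA replication, had the same pattern, but not without the 8 libraries. Of the 6 genes lower at day 3 only, Klhl24 had -0.66 ± 0.15 and then 0.00 ± 0.13, and it too depended on the 8 libraries.

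A reversal with calls at both days was found for 5 genes. Smc2, a condensin subunit that compacts chromosomes, ranged from 91.7 to 147 CPM (median 137) in control and 142 to 205 CPM (median 170) in knockout mice at day 3. The range at day 7 was from 76.7 to 111 CPM (median 100) in control and 43.1 to 57.1 CPM (median 49.7) in knockout mice. It was higher by 0.53 ± 0.11 (adjusted p = 0.025) and then lower by 0.96 on the log2 scale (interaction -1.47 ± 0.15, adjusted p = 7.81e-08). Dkc1, which modifies ribosomal RNA and binds the RNA of telomerase, had 0.56 ± 0.10 and then -0.23 ± 0.09, the latter just past the threshold (adjusted p = 0.0474). Its exons overlap those of Mpp1. Oasl2, an interferon-induced gene, had 0.67 ± 0.16 and then -0.81 ± 0.21, with overlapping ranges at both days.

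The mitochondrial tRNA gene mt-Tq had 0.60 ± 0.14 (adjusted p = 0.0486) and then -0.92 ± 0.13, and it lies opposite mt-Ti, whose reads may be mixed with its own. Tmem117 went the other way, from -0.996 ± 0.22 to 0.77 ± 0.20. It has a mean of 38.4 counts per library and was chosen after its values were seen. None of the 5 kept both calls without the 8 libraries, where Smc2, Oasl2 and mt-Tq were late, and none was found at an adjusted p under 0.01.

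A wider set of 214 called genes had effects of opposite sign and at least 0.5 on the log2 scale at each day, whatever their calls, 123 of them turning downwards and 91 upwards. Of these 214, 169 were called at day 7 and 5 at day 3. Of the 26 CM genes 8 were among them. Slc2a5, the fructose transporter, ranged from 22.6 to 159 CPM (median 102) in control and 12.2 to 448 CPM (median 214) in knockout mice at day 3. Day 7 levels ranged from 230 to 354 CPM (median 287) in control and 81.3 to 300 CPM (median 149) in knockout mice. Its effect was 1.45 ± 0.53 at day 3, not called (adjusted p = 0.212), and -0.82 ± 0.24 at day 7, and it counted as reversed without knockout replicate 1 of day 3, the lowest of its group. Fabp1, a second fatty acid carrier, had 1.78 ± 0.56 and -0.43 ± 0.26, of which neither was called while the interaction was (-2.21 ± 0.70, adjusted p = 0.0254), and it was called as higher at day 3 alone without that library. The interaction of Fabp1 was not called without knockout replicate 3 of day 3 (adjusted p = 0.0543) or control replicate 3 of day 7 (adjusted p = 0.0551). Txnip, which restrains glucose uptake, turned upwards, from -0.80 ± 0.27 to 0.69 ± 0.13 (interaction 1.51 ± 0.33).

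Lists of neighbouring tissue and of muscle had no calls for the interaction. This held for 14 genes of smooth muscle, 12 of enteric neurons and glia (of which 1 was called without the 4 or the 8 libraries), 12 of pancreatic acinar cells and 5 of stomach epithelium. Of the 5 stomach genes 3 were lower in the knockout at day 7, where 1 control library held stomach transcripts. The median interaction of the stomach genes was -4.32 on the log2 scale, and 0.719 without the 4 libraries. It was 0.974 for acinar, 0.126 for neuron and glia and -0.106 for smooth muscle genes. The lack of calls in the stomach and acinar lists therefore does not show that their levels held. Acta2, a smooth muscle actin, fell by 1.17 in knockout and 1.15 in control mice on the log2 scale, and its interaction was -0.02 ± 0.33. Fibroblast and endothelial genes differed from muscle: all 16 fell in control mice between the days with a median of -1.09, 5 fell in knockout mice with a median of -0.30, and 5 were called as more positive (9 without the 4 libraries, 3 without the 8). Emcn, of capillaries, had -1.48 in control and -0.24 in knockout mice and an interaction of 1.24 ± 0.30 (adjusted p = 0.00413). Among epithelial lineages beside enterocytes, 1 of 13 Paneth cell genes and 3 of 17 goblet cell genes were called, all as more negative (2 and 5 without the 4 libraries, 0 and 4 without the 8). Over all genes tested 9.74% were called as more negative, and these counts were not tested against that share. Lyz1, of Paneth cells, had -0.69 and Muc2, of goblet cells, had -0.58, and neither was called.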

How the data were processed

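RNA of whole proximal SI was sequenced by QuantSeq 3′ mRNA-seq (FWD). The authors trimmed the reads with cutadapt 2.10, aligned them to GRCm38 with ERCC spike-in sequences using Subread, and deposited estimated counts per gene from featureCounts 2.0.1, in which reads over several genes were split. Of these values 95% are whole, and the rest were rounded. The option for the strand is not given in the sources used here. The 92 spike-in entries are 0. A deposited table of CPM by the authors equals their counts scaled to each library total and served only as a check.

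Groups follow the labels. The interaction was tested in R 4.3.3 by edgeR 4.0.16 with its quasi-likelihood F test (TMM, Benjamini-Hochberg over all genes tested, called at an adjusted p under 0.05) in 1 fit of all 26 libraries, and each day in a fit of its own. Genes at 0 in over 0.5 of the samples of any group in a fit were left out. Changes between days came from the fit of all libraries. The ± on a log2 change is its SE, taken as its absolute value over √F. CPM values are counts over the library total. The p-values measure the spread between these samples, and library totals limit the precision of low genes by counting error only. 

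The text names the first 4 genes and up to 4 of the largest called interactions of each of 47 lists (922 symbols, all found), and 6 genes per pattern and direction with a mean of at least 100 counts, leaving out Gm and Rik symbols and immunoglobulin segments. The targeted gene and a few others are not reported here. Members, lists and this rule were chosen with earlier results of these data known. Alternatives were DESeq2 1.42.0, its size factors, other filters on low counts, limma 3.58.1 (voom), a replicate block, a 2-fold minimum, a stricter threshold, tissue scores as covariates and each replicate left out. The fits were tested on simulated data. Gene positions and overlaps are from an annotation of GRCm38, and promoters from RefSeq (GRCm38.p6), with entries for 12624 of the tested genes.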

Additional observations from a re-analysis of the deposited data

Results flagged for a closer look

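The knockout effect differed between the days, by the test of the interaction, for 1693 genes in the positive and 1910 in the negative direction. The 5 genes with called effects of opposite direction at the 2 days had differences of -0.77 (Dkc1), -1.47 (Smc2), -1.47 (Oasl2), -1.497 (mt-Tq) and 1.79 (Tmem117) on the log2 scale.

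Single libraries stood apart from their group, by the gap to the nearest sample relative to the range of the group, in 33 of 252 checks. Each check took a gene, or the library total, in a group. Chance gives about 1 in 20, or 12.6, but genes of a library are not independent, so these counts do not form a test. Knockout replicate 1 of day 3 was the low sample in 14 of the 33. It held 14.5 CPM of Areg, 149 CPM of Atf5, 35.5 CPM of Psat1, 13.9 CPM of Trib3 and 75.5 CPM of Cdkn1a. It held 120 CPM of Fabp2, 59.1 CPM of Apob, 65.4 CPM of Mttp and 111 CPM of Fabp1. For the brush border and transport it held 5.47 CPM of Lct, 95.9 CPM of Sis, 88.7 CPM of Slc5a1 and 12.2 CPM of Slc2a5, and it held 31.3 CPM of Hnf4g.

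Control replicate 5 of day 3 stood apart in 7 cases. It was low for Hspa9 (181 CPM), Cyp2c66 (6.72 CPM), Lgr5 (6.18 CPM) and Smc2 (91.7 CPM), and high for Pdcd4 (848 CPM), Hmox1 (13.4 CPM) and Anxa3 (43.3 CPM). Control replicate 2 of day 7 was low for Sema5a (64.3 CPM) and high for Hk1 (36.7 CPM). These 3 libraries all carried stomach transcripts, whose part in these values was not tested.

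The other cases lay in other libraries. Among knockout mice of day 7, replicate 3 was high for Atf5 (453 CPM), replicate 1 high for mt-Co1 (9800 CPM), replicate 4 low for Ddit3 (199 CPM) and replicate 2 low for Hnf4g (25.8 CPM). Among control mice of day 7, replicate 3 was low for Gsta2 (0.684 CPM) and Cyp2c66 (60.4 CPM), replicate 5 low for Ppp1r15a (3.27 CPM) and replicate 1 high for Dbf4 (36.4 CPM). At day 3, control replicate 3 was low for Ppp1r15a (8.96 CPM) and knockout replicate 3 low for Fads2 (43.5 CPM).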

How the results depend on the processing

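The count of genes called for the interaction, 3603, ranged from 2850 to 4215 over fits with other tools, filters, covariates or samples, and from 3119 to 4106 when each replicate was left out in turn. In each of these fits the genes also called at first, 2575 to 3601 of them, had the same sign. With a difference of at least 2-fold, 2028 genes were called, 786 higher and 1242 lower. Genes called at day 3 (297) numbered 769 with DESeq2, 808 with effects from 1 fit of all libraries and 486 without the 4 libraries with stomach transcripts, an alternative chosen after seeing the data. In the same order sustained higher genes (207) numbered 428, 472 and 313, sustained lower genes (46) 170, 157 and 86, and those with a called growth (114) 239, 242 and 180. Genes called at day 3 only (15) numbered 50, 43 and 33 and reversed genes (5) 20, 13 and 11. A called shrinkage was found for 1 gene with DESeq2, with its size factors, with filterByExpr and without the 8 libraries with stomach or acinar transcripts, also chosen after seeing the data, and for 6 without the 4. Without the 8, 3 genes were called at day 3 only, 2 were reversed, and 326 genes with a more positive effect fell in control mice. Counts of called genes of 3 or fewer in a list moved by at most 2 genes without the 4 or the 8. With filterByExpr 122 genes had effects of opposite sign. With the smooth muscle score as a covariate, added after seeing the data, 45 genes with a more positive effect fell and 189 with a more negative effect rose in control mice. At an adjusted p under 0.01, 100 genes were sustained higher, 11 sustained lower, 41 with growth, 866 late higher, 2 at day 3 only, 0 reversed and 106 of opposite sign. The cause of these shifts was not tested.

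Without single replicates the day 3 count ranged from 171 (without knockout replicate 4) to 779 (without knockout replicate 1), sustained higher genes from 138 to 479, sustained lower from 17 to 112, growth from 69 to 205, shrinkage from 0 to 6, day 3 only from 6 to 63, reversed from 1 to 21 and opposite sign from 152 to 405. All of these highest counts came without knockout replicate 1 of day 3. The replicate numbers showed no clear pairing: the deviations of same-numbered samples correlated at over 0.1 in 4 of 13 pairs, from -0.282 to 0.296. The libraries also differed in stomach and acinar transcripts, so this check cannot exclude a pairing. With the replicate number as a block 3000 genes were called for the interaction and 99 at day 3, and 76 were sustained higher, 18 sustained lower, 52 with growth, 1 at day 3 only and 0 reversed.

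Of 121 named genes 104 were called for the interaction. Of these 3 lost the call without at least 1 replicate, and 2 others, Atf4 and Atf5, gained it. Calls were lost with the block for Apob, Mttp, Sis, Fabp1 and Ms4a1, with limma voom for Apob, Fabp1 and Ms4a1, without the 4 libraries for Atf3, and without the 8 for Atf3, Wars2, Tcof1 and Klhl24. The genes that turned sign were not called in any fit. Phgdh had -0.11 without the 4 libraries and -0.30 without the 8. Shmt2 had -0.012 with DESeq2, -0.013 with its size factors, -0.066 without the 4 and -0.033 without the 8, and ranged from -0.087 to 0.087 without single replicates. Hspd1 had 0.015 without the 4 and ranged from -0.18 to 0.066 without single replicates. Cdkn1a had 0.19 with the block, 0.22 with limma voom, 0.11 with the acinar and stomach scores and 0.17 without the 8, and ranged from -0.19 to 0.21. Acta2 had 0.12 with the block, with limma voom and with the smooth muscle score and 0.26 without the 4, and ranged from -0.15 to 0.17. The library totals leave genes of low level, such as Tmem117, with wide errors.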

Other observations

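Genes of immune cells and of the circadian clock, which belong to none of the programmes above, also changed their knockout effect between the days. Of 21 genes of lymphocytes and plasma cells, 9 were called for a more negative and 2 for a more positive effect, and none was called at day 3. Gzma, a granzyme of cytotoxic T cells, ranged at day 3 from 2.96 to 39.4 CPM (median 14.9) in control and from 1.68 to 50.4 CPM (median 23.3) in knockout mice. By day 7 it ranged from 57.7 to 121 CPM (median 80.3) in control and from 2.54 to 11.2 CPM (median 6.04) in knockout mice, so that the genotypes were apart at day 7 only. Its interaction was -4.07 ± 0.74 (adjusted p = 0.000177, edgeR). Ccl5, a chemokine of such cells, had -3.77 ± 0.55 and Cd3e, a subunit of the T cell receptor complex, -1.87 ± 0.46. Of the 2 exceptions, the B cell gene Ms4a1 (4.47 to 6.78 when each library was left out in turn) had median levels under 3 CPM in every group and overlapped between the genotypes at both days. The call of Ms4a1 was lost without any 1 of 7 libraries (control replicates 4 and 6 of day 3, and knockout replicates 4 and 5 and control replicates 3, 5 and 6 of day 7), with an adjusted p of up to 0.0687.

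Of 33 genes of the interferon response and antigen presentation, 9 were called as more negative and none as more positive. B2m, the light chain of MHC class I, had -1.21 ± 0.22, the proteasome subunit Psmb8 -2.10 ± 0.30 and the transcription factor Irf1 -1.51 ± 0.23. Of 17 clock genes 6 were called as more negative and 2 as more positive, with none called at day 3. Dbp, an output factor of the clock, ranged at day 3 from 17.5 to 34.1 CPM (median 26.3) in control and from 13.1 to 26.3 CPM (median 18.2) in knockout mice. Its range at day 7 was 23.4 to 49.9 CPM (median 33.8) in control and 2.45 to 6.03 CPM (median 3.91) in knockout mice. The interaction of Dbp was -2.75 ± 0.31 (adjusted p = 2.63e-07, edgeR), and Hlf had -2.13, Nr1d1 -1.42 and Per3 -1.40. The hour at which the mice were killed is not given in the sources used here.

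Of 20 genes of the ER unfolded protein response, 8 were called as more negative (5 without the 8 libraries with stomach or acinar transcripts), among them the chaperones Hsp90b1 (-0.83), Pdia4 (-1.06) and Sdf2l1 (-1.60), and 3 as more positive, among them the cochaperone Dnajb9 (1.14) and the stress sensor Ern1 (1.23). Of 22 p53 targets 7 were called as more positive, among them Phlda3 (2.56), Ccng1 (1.40) and Tnfrsf12a (1.82), and 3 as more negative. Genes of drug and xenobiotic metabolism were called as more negative in 16 of 29 cases (21 without the 4 libraries) and as more positive in none. In other lists the calls for a more positive and a more negative effect numbered 4 and 5 of 24 for fatty acid oxidation (2 and 3 of 23 without the 8), 3 and 4 of 15 for fatty acid synthesis, 4 and 3 of 20 for glycolysis and 2 and 1 of 13 for lipid droplets. They numbered 2 and 4 of 13 for antimicrobial lectins, 1 and 4 of 20 for enteroendocrine and 2 and 3 of 13 for tuft cells, 3 and 0 of 16 for macrophages and neutrophils, 4 and 0 of 25 for mitochondrial ribosomal proteins (2 without the 4 libraries with stomach transcripts, 1 without the 8) and 2 and 2 of 13 for immediate early genes. None of 5 Brunner gland and duodenum genes and none of 3 red blood cell genes was called, and the 1 ileum gene was called as more negative. Over all genes tested, 1.11% were higher and 0.323% lower in the knockout at day 3. For the interaction, 8.64% were called as more positive and 9.74% as more negative, and no list was tested against these shares.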
